A study of Capra hircus with 6 samples.

Results

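The p53 pathway and apoptosis genes were described in goat intramuscular preadipocytes in which the lipase gene LIPG was silenced. A list of 45 genes was matched by gene name to the rows of the deposited expression table, and 37 of them had a row of that name among 27271 genes, of which 18989 carried a name. The 8 genes without such a row were MDM2, MDM4, CCND2, BID, BCL2L1, TNFRSF10B, CYCS and SIAH1. The 37 genes fell into feedback regulators of p53 (4 genes), DNA damage kinases (3 genes), cell cycle genes (11 genes), mitochondrial apoptosis genes (8 genes), receptor and membrane apoptosis genes (6 genes), and genes of metabolism and repair (5 genes). The cell cycle genes, labelled arrest in the figures, join genes that halt the cycle with the cyclins and kinases that drive it. The receptor and membrane group also holds PIDD1, a death domain protein, and ZMAT3, which binds RNA. Not all its genes therefore encode receptors or membrane proteins. In the libraries labelled Si-LIPG, CCNG1 and APAF1 were higher and GADD45G and PIDD1 were lower at the study's criterion, and PIDD1 alone had an adjusted p under 0.05. Neither of the lower genes was called when counts were set against all sequenced reads instead of reads on genes.

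p53 is a transcription factor that kinases of the DNA damage response stabilize when DNA is broken or cells are stressed. Its targets halt the cell cycle, repair DNA, restrain growth signalling or start apoptosis, in which pores in the mitochondrial membrane release factors that assemble caspase-activating complexes, while death receptors start caspases from the cell surface. Some targets, among them MDM2, PPM1D and CCNG1, act back on p53 and shut the response off. In fat precursor cells the D cyclins and their kinases, which p53 opposes through CDKN1A, drive the divisions that precede differentiation.

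The cells were primary intramuscular preadipocytes, adherent precursor cells grown out of the longissimus dorsi muscle of 3-day-old Jianzhou goats and used at passage 3, with no sort on surface markers. The NC groups (n = 3, genotype WT) received a negative control interfering RNA and the Si-LIPG groups (n = 3, genotype LIPG Knock down) an siRNA against LIPG, which lowers the transcript and deletes nothing. The cells of both groups were then induced to differentiate with 50 μmol/L oleic acid for 48 h, so that no uninduced culture stands beside them. RNA-seq measured poly(A) RNA in 3 libraries of each group.

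The 6 libraries held between 36451900 and 52638800 reads, of which 0.997% to 1.53% were counted on genes in the NC groups and 1.80% to 2.88% in the Si-LIPG groups, and 91.6% to 93.7% were assigned to no annotated gene. The strand setting of the counting is not given in the sources used here, so that unassigned reads may include reads that lie on genes. For no gene was it tested whether its counts came from its own transcript. LIPG was counted 0, 2 and 0 times in the NC groups and 0, 2 and 2 times in the Si-LIPG groups, at or under the 3 counts that a count of 0 allows, and these counts give no check of the labels. Higher and lower therefore rest on the group labels of the deposited libraries alone, and every direction given here would turn if these were exchanged. At the study's criterion the paper reports more genes higher than lower in Si-LIPG. DESeq2, the tool it names, called 629 genes higher and 1064 lower on the deposited labels. The split that the paper reports is close to this one with higher and lower exchanged, so that its directions are opposite to those given here. Whether the labels or the paper's direction are exchanged was not tested. NC library 1 stood apart, with a distance of 120.5 and 118.6 to the other NC libraries over the log2 values of all tested genes, against 85.8 between those. NC library 3 lay nearer to Si-LIPG library 1, at 78.8, than to either other NC library. Of 11 preadipocyte and mesenchymal markers with a row, 10 exceeded 3 counts in some library and DLK1 was at 0 in all, and their summed level after TMM normalization, a scaling that assumes that most genes do not change, was 22250 to 30190 counts per 1000000 reads (CPM) in the NC groups and 31370 to 37700 CPM in the Si-LIPG groups. COL1A1 and COL1A2 held most of this sum, and the single markers differed in direction. ENG and THY1 had log2 fold changes of Si-LIPG over NC below 0 (-1.07 and -0.38), and the other tested markers above 0. At the study's criterion ENG was lower and DCN and LUM were higher. The 10 myogenic markers, 9 of them above 3 counts in some library, summed to 995 to 1315 CPM and 951 to 1388 CPM, which overlap. Without TMM, per 1000000 reads on genes, the mesenchymal sum was 13070 to 27220 and 38630 to 41150 and the myogenic sum 585 to 1213 and 1239 to 1422. The part of these differences in the results was not tested. Of the adipocyte markers, 5 of 6 exceeded 3 counts in some library and LPL was at 0. CDH5, KDR, TEK and TIE1 of the 6 endothelial markers, and PTPRC and CD3E of the 6 immune markers, were at 0 in every library. In such bulk cultures, fewer cells of a type and less RNA per cell cannot be told apart.

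Few reads were counted on the pathway. PIDD1 took 79.4% to 89.6% of all counts on the 37 genes in the NC groups and 50.4% to 71.0% in the Si-LIPG groups, and the other 36 genes together held between 228 and 1469 counts in a library. More than 3 counts were found for 15, 26 and 22 of the 37 genes in NC libraries 1, 2 and 3 and for 26, 29 and 32 in Si-LIPG libraries 1, 2 and 3. Replicates are given in that order throughout. PERP and PMAIP1 had no count in any library, and SFN and CASP9 never exceeded 3 counts. Enough counts for a test were found for 20 of the 37 genes, among 6574 tested genes.

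**Figure D1:**
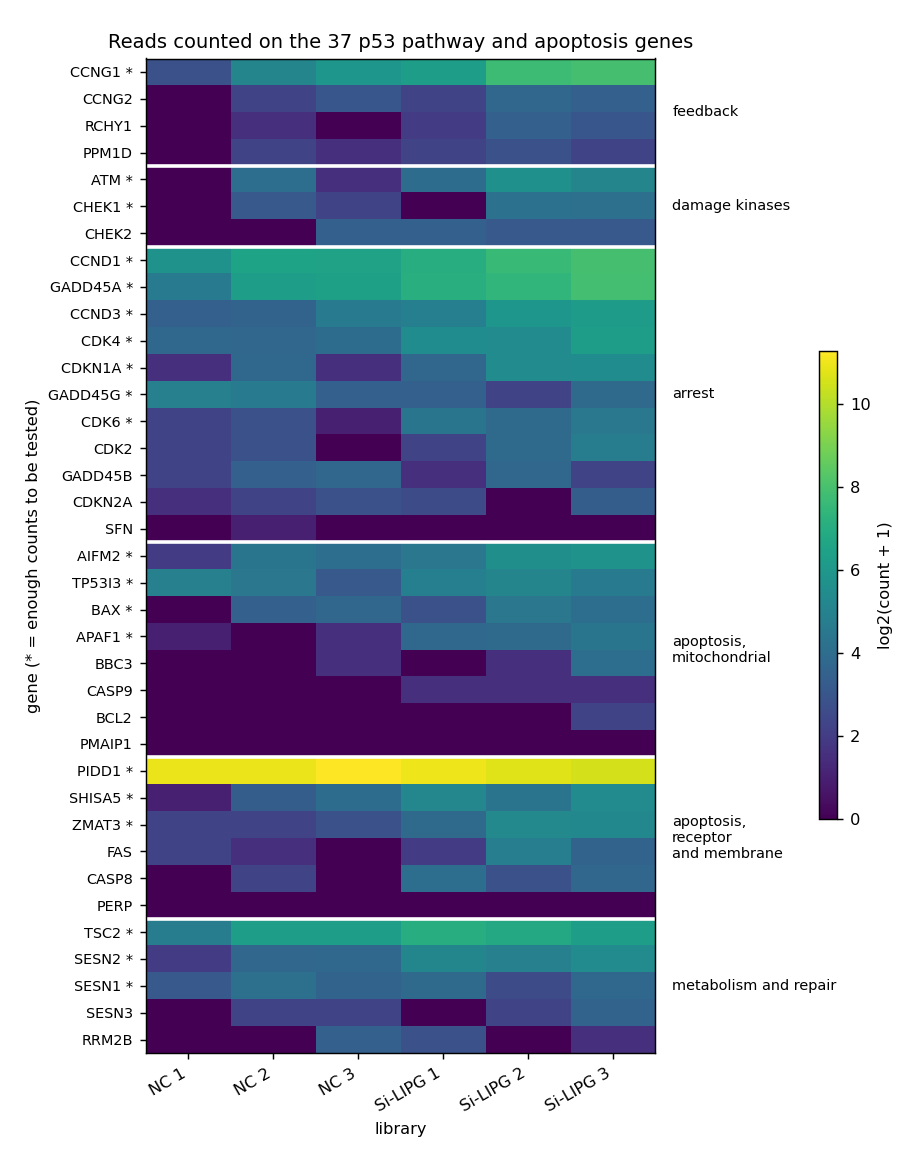
Reads counted on each of the 37 genes (rows, grouped by role) in each library (columns), as log2(count + 1) in colour, with an asterisk on the 20 genes with enough counts to be tested. PIDD1, with 1495 to 2471 counts, is far above every other gene in all 6 libraries, and most genes without an asterisk are dark, at few counts or none.

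Differences between the groups were tested by edgeR's quasi-likelihood test on counts normalized by TMM. The study's criterion, an unadjusted p under 0.05 with a fold change over 1.5, was met by 4 of the 20 tested genes, against 20.7% of all tested genes. CCNG1 and APAF1 were higher, where 7.83% of all tested genes were called higher, and GADD45G and PIDD1 were lower, where 12.9% of all tested genes were called lower. An adjusted p under 0.05 in edgeR was reached by 1 of the 20 genes, PIDD1, and by 6.51% of all tested genes (5.54% lower and 0.974% higher). The normalized CPM of the groups did not overlap for 6 of the 20 genes (30.0%), against 28.7% of all tested genes. APAF1, ZMAT3 and SESN2 were the 3 genes with every Si-LIPG library above every NC library, and GADD45G, PIDD1 and SESN1 the 3 with every Si-LIPG library below. APAF1 and ZMAT3 had enough counts for a test only through their Si-LIPG libraries, so that they could hardly have been tested without being higher there. These shares of the pathway genes lay near those of all tested genes.

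Over the 20 genes the median log2 fold change of Si-LIPG over NC was 0.52, against 0.16 over all tested genes. Of the 20, 14 were above 0 (70.0%, against 58.4% of all tested genes). APAF1, ZMAT3 and CDK6, all above 0, had enough counts for a test only through their Si-LIPG libraries. Their signs therefore give no support to these values or to the medians by role. By role, the median was 1.29 for the 1 tested feedback regulator, 0.78 for 2 kinases and 0.56 for 7 cell cycle genes. The median was 0.17 for 4 mitochondrial apoptosis genes, 0.90 for 3 receptor and membrane apoptosis genes and -0.24 for 3 genes of metabolism and repair. The 3 receptor and membrane genes were PIDD1, ZMAT3 and SHISA5, none of them a death receptor. The SD of the median of the 20 genes between libraries of a group was 0.24, so that these medians are described without a test.

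Among the feedback regulators, CCNG1 rose at the criterion. It encodes cyclin G1, a p53 target that brings a phosphatase to MDM2 and so acts back on p53. CCNG1 (ENSCHIG00000004699) was counted 6, 34 and 60 times in the NC groups and 80, 213 and 247 times in the Si-LIPG groups. Normalized by TMM these were 19.5, 61.2 and 94.6 CPM against 90.3, 174 and 180 CPM, or 58.4 ± 37.6 and 148 ± 50.2 (SD, n = 3 each). Si-LIPG library 1 lay just below NC library 3, and the other Si-LIPG libraries were above all NC libraries. The log2 fold change was 1.29 (SE 0.46, 95% interval 0.31 to 2.26, edgeR adjusted p = 0.110), and the criterion was no longer met without Si-LIPG library 3 (log2 fold change 1.10, edgeR adjusted p = 0.399).

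The remaining feedback regulators had too few counts to be tested. CCNG2, which encodes the related cyclin G2, was counted 0, 4 and 7 times in the NC groups and 4, 12 and 10 times in the Si-LIPG groups. RCHY1, a ubiquitin ligase that targets p53, was counted 0, 2 and 0 times and 3, 10 and 7 times. PPM1D, the phosphatase that switches off the damage kinases, had at most 6 counts in any library. In normalized CPM the groups overlapped for all of these.

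No DNA damage kinase met the criterion. ATM, the kinase that senses broken DNA and phosphorylates p53, was counted 0, 16 and 2 times in the NC groups and 15, 50 and 34 times in the Si-LIPG groups. Its normalized level was 10.7 ± 15.8 CPM and 27.5 ± 12.1 CPM (SD, n = 3 each), with NC library 2 inside the Si-LIPG range, and its log2 fold change was 1.27 (edgeR adjusted p = 0.463). CHEK1, the kinase downstream of stalled replication, was counted 0, 8 and 4 times and 0, 18 and 17 times, with a log2 fold change of 0.30 (edgeR adjusted p = 0.921), and each group held a library with no count. CHEK2, which passes on the ATM signal, was counted 0, 0 and 10 times and 10, 8 and 8 times and was not tested.

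Of the 11 cell cycle genes, 7 were tested. A log2 fold change above 0 was found for 6 (85.7%, against 58.4% of all tested genes), and only GADD45G met the criterion, in the other direction. The 6 were the arrest genes CDKN1A and GADD45A and the drivers of the cycle CCND1, CCND3, CDK4 and CDK6. CDK6 was counted 4, 6 and 1 times in the NC groups and 20, 14 and 22 times in the Si-LIPG groups. It had enough counts for a test only through its Si-LIPG libraries, so that its sign gives no support. GADD45G belongs to a family of small stress-induced proteins that bind cell cycle kinases and PCNA. GADD45G (ENSCHIG00000016621) was counted 29, 23 and 10 times in the NC groups and 10, 4 and 14 times in the Si-LIPG groups. Its normalized level was 94.0, 41.4 and 15.8 CPM against 11.3, 3.26 and 10.2 CPM, or 50.4 ± 39.9 and 8.26 ± 4.36 (SD, n = 3 each). All Si-LIPG libraries were below all NC libraries, though NC library 3 was close to them. The log2 fold change was -2.55 (SE 0.73, 95% interval -4.11 to -0.99, edgeR adjusted p = 0.0506), and the criterion was met in each fit that left out 1 library (log2 fold change -3.00 to -1.78).

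Neither of the other GADD45 genes was called. GADD45A, the best known p53 target among them and after PIDD1 the highest of the 37 genes per length (64.7 FPKM over the 6 libraries), was counted 23, 79 and 83 times in the NC groups and 132, 168 and 240 times in the Si-LIPG groups. Its normalized level was 116 ± 36.2 CPM and 154 ± 19.7 CPM (SD, n = 3 each), with overlap, and its log2 fold change was 0.39 (95% interval -0.33 to 1.10, edgeR adjusted p = 0.575). GADD45B, which was not tested, was counted 4, 10 and 12 times and 2, 12 and 4 times. On the normalized scale GADD45B was 13.0, 18.0 and 18.9 CPM against 2.26, 9.78 and 2.92 CPM, with all Si-LIPG libraries lower. GADD45B falls outside the rule for named genes and was added after its values were seen.

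CDKN1A, which encodes the kinase inhibitor p21 and is the main arrest target of p53, did not meet the criterion. It was counted 2, 13 and 2 times in the NC groups and 12, 43 and 44 times in the Si-LIPG groups, or 6.48, 23.4 and 3.15 CPM against 13.5, 35.0 and 32.1 CPM after normalization. The level of NC library 2 lay above that of Si-LIPG library 1. A log2 fold change of 1.26 was fitted (SE 0.78, 95% interval -0.40 to 2.91, edgeR adjusted p = 0.396). CDKN2A, which encodes a kinase inhibitor and, from another reading frame, an MDM2 antagonist, had between 0 and 9 counts in a library and was not tested.

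The D cyclins and their kinases, which p21 and its relatives oppose, also stayed short of the criterion. CCND1, the cyclin D1 gene, was counted 52, 91 and 90 times in the NC groups and 131, 195 and 246 times in the Si-LIPG groups. After normalization CCND1 was at 158 ± 14.3 CPM and 162 ± 16.2 CPM (SD, n = 3 each), ranges that overlapped, with a log2 fold change of 0.04 (95% interval -0.60 to 0.68, edgeR adjusted p = 0.959). CCND3, the cyclin D3 gene, had 10, 11 and 25 counts and 28, 60 and 74 counts, or 30.5 ± 9.93 CPM and 44.8 ± 11.8 CPM (log2 fold change 0.56, edgeR adjusted p = 0.573). The kinase genes CDK4 and CDK6 had log2 fold changes of 0.72 and 1.05 (edgeR adjusted p = 0.435 and 0.568). CDK2, the kinase of the later cyclins, had 0 to 26 counts in a library and was not tested.

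Among the mitochondrial apoptosis genes, APAF1 rose at the criterion. It encodes the scaffold that binds released cytochrome c and assembles the apoptosome, the complex that activates caspase-9. APAF1 (ENSCHIG00000026050) was counted 1, 0 and 2 times in the NC groups and 13, 14 and 20 times in the Si-LIPG groups, or 3.24, 0 and 3.15 CPM against 14.7, 11.4 and 14.6 CPM. Every Si-LIPG library was above every NC library, and no NC library exceeded the 3 counts that a count of 0 allows. The filter on low counts kept APAF1 only through its Si-LIPG libraries, so that its call gives no support beyond those counts. The log2 fold change was 2.66 (SE 1.13, 95% interval 0.25 to 5.06, edgeR adjusted p = 0.186). APAF1 no longer met the criterion without NC library 2 (log2 fold change 2.04) or without Si-LIPG library 1, 2 or 3 (2.56, 2.75 and 2.59).

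BAX, the pore-forming protein of the outer mitochondrial membrane and a classical p53 target, differed by less than the spread between libraries. It was counted 0, 10 and 12 times in the NC groups and 6, 21 and 16 times in the Si-LIPG groups, or 12.3 ± 10.7 CPM and 11.9 ± 5.17 CPM (SD, n = 3 each). The Si-LIPG libraries lay inside the NC range, and the interval of the log2 fold change ran from -2.08 to 1.80 (edgeR adjusted p = 0.955). BAX overlaps FTL and TULP2 in the RefSeq annotation of the assembly ARS1.2, and the strand setting of the counting is not given in the sources used here, so that reads of overlapping genes may be shared. BBC3, which encodes the p53-induced BAX activator PUMA, was counted 0, 0 and 2 times and 0, 2 and 16 times and was not tested.

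TP53I3 and AIFM2 were, per length, the highest of the mitochondrial genes, at 31.6 and 27.8 FPKM over the 6 libraries. TP53I3, a p53-induced quinone oxidoreductase, was counted 29, 21 and 8 times in the NC groups and 28, 34 and 23 times in the Si-LIPG groups, with a log2 fold change of -0.86 (edgeR adjusted p = 0.491). Its normalized level in NC library 1, 94.0 CPM, stood far above the other 5 libraries, which had 12.6 to 37.8 CPM. AIFM2, an oxidoreductase of the coenzyme Q pool, was counted 3, 20 and 16 times and 21, 48 and 55 times, with a log2 fold change of 0.49 (edgeR adjusted p = 0.691) and overlapping groups. BCL2, the inhibitor of BAX, had 4 counts in Si-LIPG library 3 and none elsewhere, and CASP9, the caspase of the apoptosome, had 2 counts in each Si-LIPG library and none in the NC groups, both too few to compare.

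PIDD1, of the receptor and membrane apoptosis genes, fell at the criterion and with an adjusted p under 0.05. It encodes a death domain protein, first found as a p53 target, that forms the PIDDosome, the platform on which caspase-2 is activated. PIDD1 (ENSCHIG00000020681) was counted 1960, 1940 and 2471 times in the NC groups and 2021, 1662 and 1495 times in the Si-LIPG groups. Normalized, it was at 6355, 3494 and 3894 CPM against 2280, 1354 and 1092 CPM, or 4581 ± 1549 and 1576 ± 624 (SD, n = 3 each), and all Si-LIPG libraries were below all NC libraries. The log2 fold change was -1.54 (SE 0.39, 95% interval -2.37 to -0.71, edgeR adjusted p = 0.0400). The criterion was met in each fit that left out 1 library, but the edgeR adjusted p passed 0.05 without NC library 1 (0.0753), NC library 2 (0.0564), Si-LIPG library 2 (0.255) or Si-LIPG library 3 (0.270).

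PIDD1 also stood apart in level. Per length it was at 1229 ± 90.4 FPKM in the NC groups and 640 ± 166 FPKM in the Si-LIPG groups (SD, n = 3 each). Its mean over the 6 libraries was 935 FPKM, whereas no other gene of the list had a mean above 64.7 FPKM. In a single library, Si-LIPG library 3, GADD45A and CCNG1 reached 105 and 104 FPKM. As CPM of all reads in the files, PIDD1 was at 37.2, 45.6 and 53.6 in the NC groups and 42.1, 44.5 and 41.0 in the Si-LIPG groups. The Si-LIPG libraries then lay inside the NC range, with a log2 fold change of -0.097 (edgeR adjusted p = 0.704). SLC25A22 lies within 1 kb of PIDD1 in the RefSeq annotation of ARS1.2. Whether the counts came from the gene's own transcript was not tested, since the strand setting is not given in the sources used here.

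**Figure D2:**
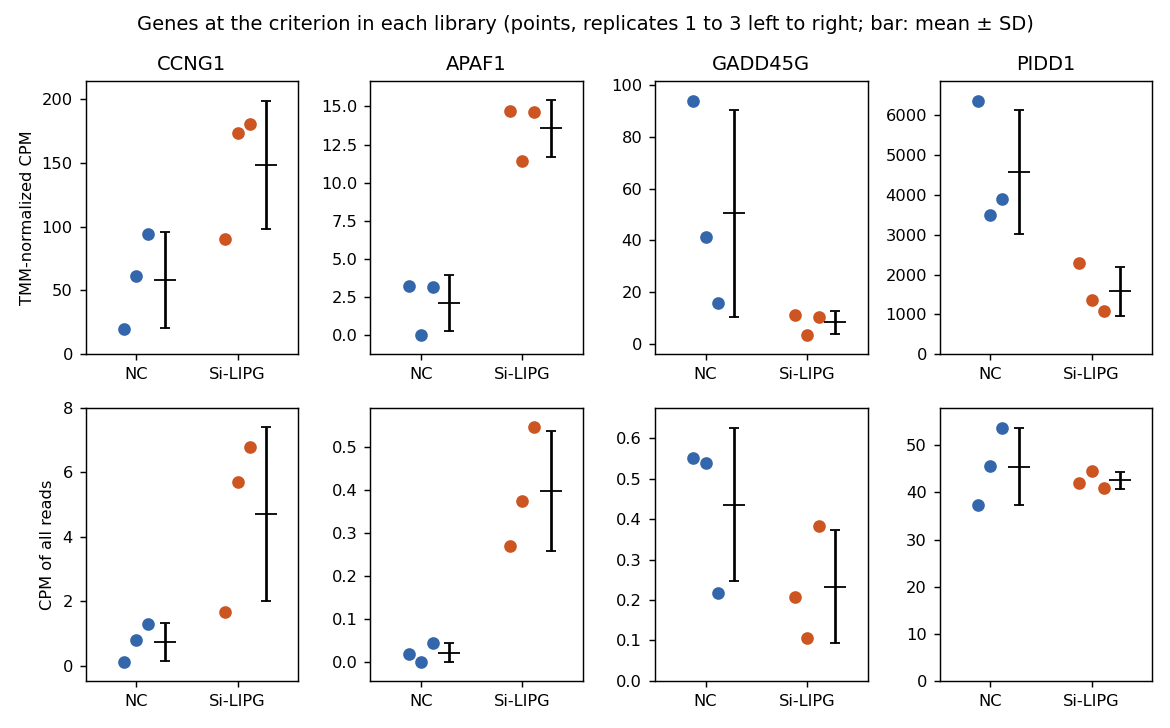
Values in each library of the 4 genes at the criterion, as TMM-normalized CPM (top) and as CPM of all reads in the files (bottom), with points for replicates 1 to 3 and a bar for the mean ± SD. PIDD1 falls from 3494 to 6355 CPM in the NC groups to 1092 to 2280 CPM in the Si-LIPG groups in the top row, while in the bottom row its groups overlap at 37.2 to 53.6 and 41.0 to 44.5 CPM of all reads.

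The other tested receptor and membrane genes were higher in most Si-LIPG libraries without meeting the criterion. ZMAT3, a p53-induced zinc finger protein that binds RNA, was counted 4, 4 and 6 times in the NC groups and 14, 38 and 37 times in the Si-LIPG groups. Its normalized levels, 13.0, 7.20 and 9.46 CPM against 15.8, 31.0 and 27.0 CPM, did not overlap, and the log2 fold change was 1.35 (95% interval -0.15 to 2.85, edgeR adjusted p = 0.299). SHISA5, a p53-induced protein of the endoplasmic reticulum, was counted 1, 9 and 15 times and 36, 19 and 42 times, with overlapping levels and a log2 fold change of 0.90 (edgeR adjusted p = 0.512).

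The death receptor FAS and its caspase were near the limit of detection. FAS had 0 to 4 counts in an NC library and 3 to 27 counts in a Si-LIPG library. CASP8, the caspase that FAS activates, had 0 to 4 counts and 6 to 16 counts, with overlapping normalized levels. Neither was tested.

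No gene of metabolism and repair met the criterion, and 1 of the 3 tested had a log2 fold change above 0 (2 of 3 when scaled to all reads, where TSC2 was at 1.00). TSC2, which restrains the growth kinase mTORC1, was counted 26, 76 and 76 times in the NC groups and 129, 110 and 80 times in the Si-LIPG groups, or 114 ± 26.8 CPM and 97.9 ± 44.1 CPM (SD, n = 3 each). These groups overlapped, with a log2 fold change of -0.24 (95% interval -1.06 to 0.59, edgeR adjusted p = 0.791). TSC2 overlaps NTHL1 in the RefSeq annotation of ARS1.2.

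The sestrins, stress-induced inhibitors of mTORC1, differed in sign among themselves. SESN1 was at 25.9, 30.6 and 17.3 CPM in the NC groups and 15.8, 4.07 and 9.50 CPM in the Si-LIPG groups (counts of 8, 17 and 11 and of 14, 5 and 13), all lower, with a log2 fold change of -1.33 (95% interval -2.93 to 0.26, edgeR adjusted p = 0.345). SESN2 was at 9.73, 21.6 and 20.5 CPM and 39.5, 23.6 and 31.4 CPM (counts of 3, 12 and 13 and of 35, 29 and 43), all higher, with a log2 fold change of 0.81 (95% interval -0.43 to 2.04, edgeR adjusted p = 0.481). Both intervals included 0. SESN3, with at most 11 counts, and RRM2B, the p53-induced ribonucleotide reductase subunit with at most 10 counts, were not tested.

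**Figure D3:**
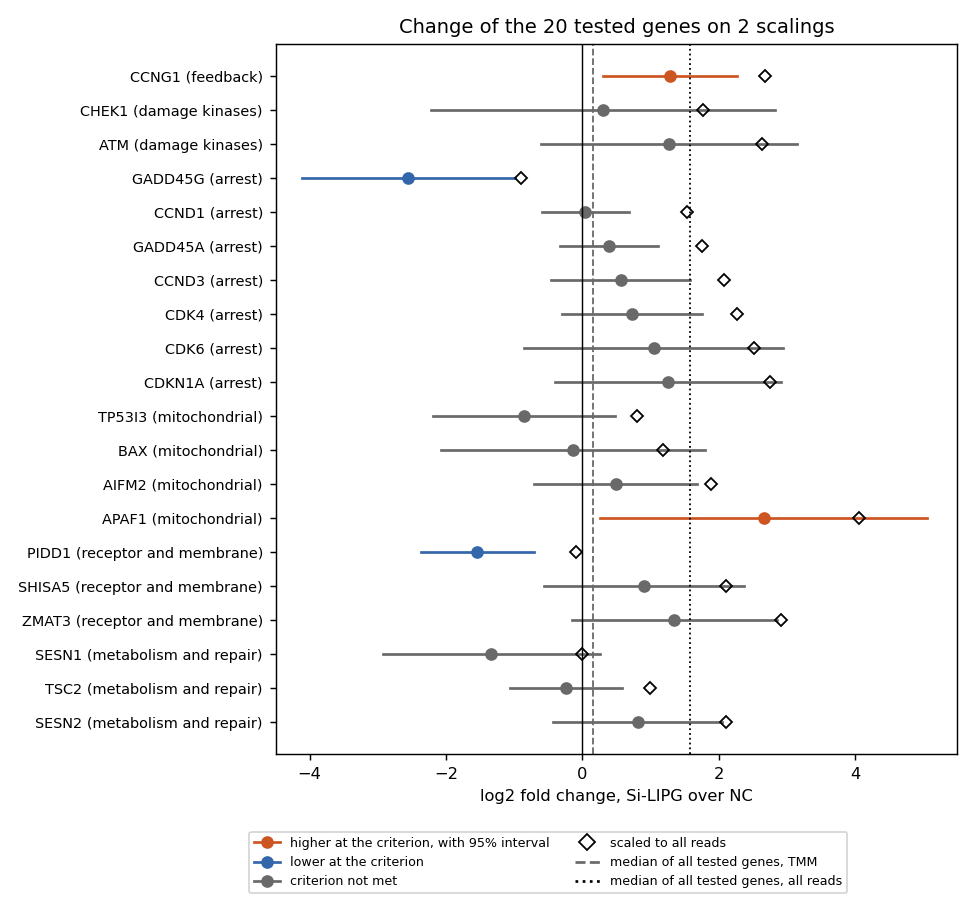
Log2 fold change of Si-LIPG over NC for the 20 tested genes after TMM normalization (circles with 95% interval, coloured where the criterion was met) and scaled to all reads (open diamonds), with the medians of all tested genes at 0.16 (dashed) and 1.58 (dotted). The diamonds lie to the right of the circles for every gene, and each gene lies on the same side of its median on both scales.

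The number and direction of the calls rested on the scaling. With all reads of a library as its size, in place of TMM, the median log2 fold change of all tested genes moved from 0.16 to 1.58 and that of the 20 pathway genes from 0.52 to 1.98. At that scaling 13 of the 20 genes met the criterion, all higher, against 46.1% of all tested genes, 17 had a log2 fold change above 0, against 92.3% of all tested genes, and GADD45G (log2 fold change -0.90) and PIDD1 were no longer called. Scaled by library sizes alone, 9 of the 20 genes met the criterion, 7 higher and 2 lower, against 1983 of all 6574 tested genes, 1588 higher and 395 lower. Measured against the median of all tested genes, the pathway genes moved little between scalings. Their median lay 0.36 above it after TMM, 0.37 with library sizes alone and 0.40 with all reads, and 13 of the 20 genes were above it in each case. Relative to that median, CCNG1 was 1.13 higher after TMM and 1.09 higher with all reads, APAF1 2.50 and 2.48 higher, while GADD45G was at -2.71 and -2.48 and PIDD1 at -1.70 and -1.68.

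**Figure D4:**
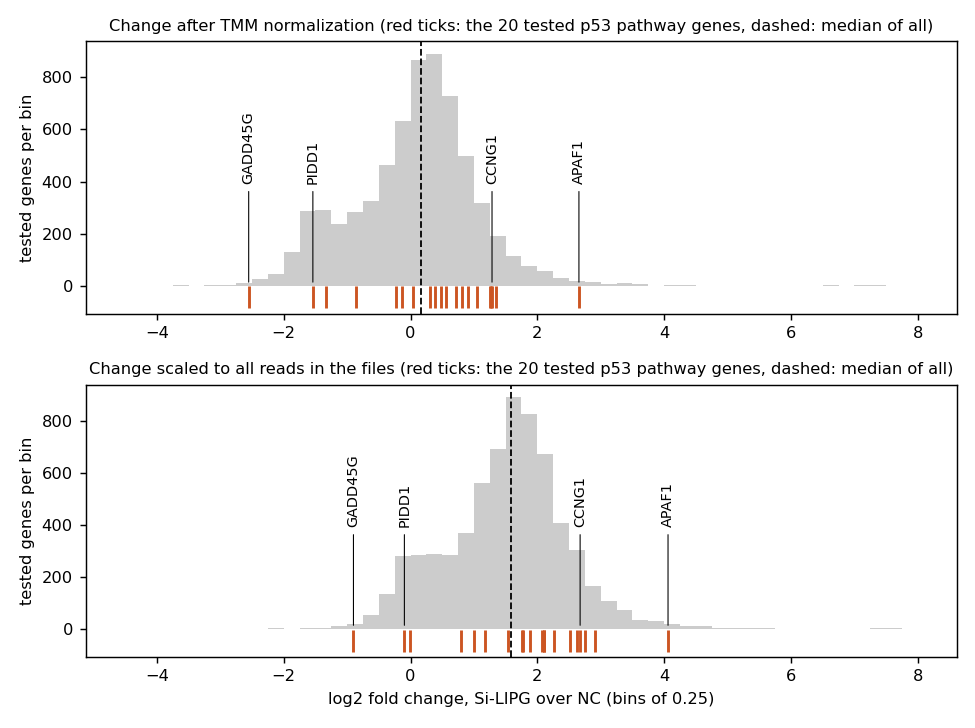
Number of the 6574 tested genes by log2 fold change of Si-LIPG over NC, after TMM normalization (top) and scaled to all reads (bottom), with red ticks for the 20 pathway genes and a dashed line at the median of all tested genes. The whole distribution shifts between the panels, from a median of 0.16 to 1.58, and PIDD1 lies in a shoulder on its left side in both.

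Other genes of the p53 and apoptosis pathways, from a second list of 71, were counted beside these. Of 64 with a row, 38 were tested and 10 met the criterion (26.3%, against 20.7% of all tested genes), 2 higher and 8 lower. The log2 fold changes of the 38 had a median of -0.03, and 19 were above 0.

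Among the 8 lower genes, 4 had an adjusted p under 0.05 in edgeR, and like PIDD1 these had more counts than most tested genes, whose median was 165.5 counts summed over the 6 libraries. KAT5, the acetyltransferase that activates ATM and p53, was counted 737, 703 and 771 times in the NC groups and 614, 477 and 423 times in the Si-LIPG groups (log2 fold change -1.81, edgeR adjusted p = 0.0395). TP53BP2, a p53-binding protein that favours apoptosis, was counted 2760, 2323 and 2506 times and 2273, 1930 and 1780 times (log2 fold change -1.65, edgeR adjusted p = 0.0400). DDB2, the damage sensor of nucleotide excision repair, and ENDOG, a mitochondrial nuclease, had log2 fold changes of -1.68 and -1.66 (edgeR adjusted p = 0.0395 each). Scaled to all reads, these 4 genes had log2 fold changes of -0.35, -0.13, -0.10 and -0.20, against -0.097 for PIDD1. CDKN2B, a kinase inhibitor, and DFFB, the caspase-activated nuclease, fell at the criterion after TMM (-1.03 and -0.93) but had log2 fold changes of 0.53 and 0.45 scaled to all reads.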

How the data were processed

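The authors deposited raw counts of reads per gene for each library and FPKM values of the same genes. The submitters' processing notes name fastp, HISAT2, SAMtools and HTSeq, without versions, and the genome build, annotation and strand setting are not given in the sources used here. The 5 rows that name no gene (reads on no feature and the like) entered neither library sizes nor tests, and were added only to obtain all reads of a library. Groups came from the sample titles.

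Counts were filtered by filterByExpr, normalized by TMM and tested with edgeR 4.0.16 in R 4.3.3, and p was adjusted by Benjamini-Hochberg over 6574 genes. DESeq2 1.42.0, which the paper names, and limma 3.58.1 on log2 of FPKM with a pseudocount of 1 or 0.1 were alternatives. Up to 3 counts were treated as what a count of 0 allows, for counting error only. Apart from the limma fits and the PIDD1 levels given by group, FPKM was used only to compare levels between genes. The p values measure only the spread between the 3 libraries of a group, which the labels do not tie to separate animals and which may be technical. Replicates differed by more than sampling noise (4.21 to 12.5 chi-square units per degree of freedom). Of the counts from 2 to 21, 69.4% to 74.5% were even, so that a count may not be an independent fragment. ND6, encoded on the other mitochondrial strand, was 54.2 to 99.3 times the median of 12 other mitochondrial genes per kilobase in the NC groups and 22.6 to 49.8 times in the Si-LIPG groups.

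Values in every library were given for genes at the criterion, for the 3 genes with the highest mean FPKM in each role, and for CDKN1A, BAX and BBC3, and at most 8 genes of the second list were named by p, some of which are not reported here. The genes, lists and tests were chosen with earlier results of these data known. Neighbouring genes within 1 kb came from the RefSeq annotation of ARS1.2, in which 36 of the 37 genes were found and 18 had a neighbour, 9 of them overlapping.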

Additional observations from a re-analysis of the deposited data

How the results depend on the processing

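Each result was recomputed with another scaling, filter, tool or set of libraries. The 4 pathway genes at the criterion became 9 with library sizes alone, 13 scaled to all reads, 2 of 6 tested with at least 10 counts in every library, and 11 and 8 by limma on log2(FPKM + 1) and log2(FPKM + 0.1), and 2 to 6 when 1 library was left out (2 without Si-LIPG library 3, 6 without NC library 1). The 1 gene with an adjusted p under 0.05 became 0 with library sizes alone and in both limma fits, 3 scaled to all reads (APAF1, CDK4 and ZMAT3), 3 with no filter on low counts (CCNG1, GADD45G and PIDD1), 2 in DESeq2 (GADD45G and PIDD1) and 0 to 2 when 1 library was left out. The median log2 fold change of the 20 genes was 1.11 with library sizes alone, 1.98 with all reads, and 1.21 and 1.29 in the limma fits, and 0.35 to 0.72 when 1 library was left out. For all tested genes it was 0.12 with DESeq2 size factors, 0.74 with library sizes alone, 1.58 with all reads, 0.30 with no filter, 0.76 and 0.86 in the limma fits and 0.11 to 0.20 when 1 library was left out. All genes at the criterion, 1361 of 6574, became 1983 with library sizes alone, 3032 scaled to all reads (3030 higher and 2 lower, against 515 and 846) and 2044 of 14848 with no filter. They became 1066 of 2757 with at least 10 counts in every library, 1912 and 1671 in the limma fits and 844 to 1527 when 1 library was left out. Those with an adjusted p under 0.05, 428, became 123 with library sizes alone, 750 with all reads, 714 with at least 10 counts, 0 in both limma fits and 0 to 648 when 1 library was left out. The causes of these shifts were not tested.

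Whether replicate numbers pair the libraries was not settled. Same-numbered libraries had correlations of 0.21, 0.064 and 0.11 between their deviations from the group means. NC libraries 1 and 3 correlated best with the Si-LIPG library of the same number, whereas NC library 2 correlated best with Si-LIPG library 3. With a replicate block, 4 pathway genes met the criterion (ATM in place of APAF1), 3 had an adjusted p under 0.05 in edgeR (CCNG1, GADD45G and PIDD1), as did 925 of all tested genes, and the median of all tested genes was 0.22.

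The log2 fold change changed sign for 7 of the 26 genes followed. BAX was at 0.37 with library sizes alone, 1.18 with all reads, 1.30 and 2.37 in the limma fits, 0.18 with the replicate block, and between -0.62 and 0.23 when 1 library was left out (0.23 without NC library 3, 0.14 without NC library 2, 0.069 without Si-LIPG library 1). TSC2 was at 0.26 with library sizes alone, 1.00 with all reads, 0.28 and 0.30 in the limma fits and -0.68 to 0.040 when 1 library was left out (0.040 without Si-LIPG library 3). TP53I3 was at 0.80 with all reads, 0.041 and 0.052 in the limma fits and -1.35 to 0.012 when 1 library was left out (0.012 without NC library 1). CCND1 was at -0.0061 with DESeq2 size factors, and -0.034 to 0.088 when 1 library was left out (-0.034 without NC library 3, -0.033 without Si-LIPG library 3). CHEK1 was at -0.23 to 1.24 when 1 library was left out (-0.14 without NC library 1, -0.23 without Si-LIPG library 2, -0.014 without Si-LIPG library 3). CDKN2B and DFFB were at 0.53 and 0.45 with all reads. With no filter on low counts 35 of the 37 pathway genes were tested and the 4 at the criterion were the same. DESeq2 called 1693 of all genes at the criterion, 629 higher and 1064 lower.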

Other observations

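For some of the 8 genes with no row of their name, the deposited table held rows whose product description names the protein. These rows lie outside the rule and were chosen after their values were seen. The row described as Mdm2, the main ubiquitin ligase of p53, had no count in any library. The row described as Mdm4, its partner, was counted 8, 14 and 10 times in the NC groups and 5, 4 and 5 times in the Si-LIPG groups, with every normalized Si-LIPG level below every NC level (log2 fold change -2.38, edgeR adjusted p = 0.105, and -0.98 scaled to all reads). The filter on low counts kept the Mdm4 row only through its NC libraries. The 2 rows described as BCL2L1 products had no count. Of the rows described as like TNFRSF10B, a death receptor, 1 was counted 0, 0 and 0 times and 0, 1 and 3 times, and the other 2, 2 and 1 times and 0, 16 and 4 times.

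Apart from PIDD1, the pathway's counts were a larger share of the reads on genes in the Si-LIPG groups. The other 36 genes took 434 to 836 of every 1000000 reads on genes in the NC groups and 956 to 1397 in the Si-LIPG groups. All tested genes shifted the same way with library sizes alone, by a median log2 fold change of 0.74. PIDD1 took 3223 to 3735 and 1422 to 2337, and with PIDD1 included the pathway's share was lower in the Si-LIPG groups. On the normalized scale the sums of the other 36 genes stood closer, at 739, 906 and 794 CPM against 933, 1001 and 1073 CPM, without overlap. Such sums were otherwise made only for the cell type markers. On the normalized scale the mesenchymal sum was also higher without overlap (22250 to 30190 CPM against 31370 to 37700 CPM). The immune sum was lower without overlap (29.9 to 48.6 CPM against 21.2 to 29.3 CPM), and the myogenic, adipocyte and endothelial sums overlapped. Per 1000000 reads on genes, the mesenchymal and myogenic sums were both higher without overlap.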
